A study of Homo sapiens with 2 samples.

Results

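Chromosome 20 was described along its length as the set of rows of the authors' deposited gene table whose locus lies on it. These were 1457 of 60586 genes. Ratios were restricted to 363 genes, called measured here, that were chosen by their FPKM: the average of the MOLT4 and K562 values had to reach 1. Of these, 351 were above 0 in both lines and had a ratio. FPKM counts sequenced fragments scaled by transcript length and by the total mapped. The remaining 12 measured genes were listed at 0 in 1 line and had no fold, and the 1094 genes under 1 FPKM had no ratio either. The FPKM values themselves set which genes had a ratio, and the chromosome was chosen with results of these data known. The ratios are therefore a description with no test of their own. Just inside the threshold were BFSP1 at a mean of 1.01 FPKM and ZBTB46 at 1.02 FPKM. Just outside it were SDCBP2 at 0.999 FPKM and NCOR1P1 at 0.980 FPKM.

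Unless stated otherwise, pairs of values give MOLT4 first and K562 second. RNA was sequenced from a pair of established human leukaemia lines. K562 came from a chronic myeloid leukaemia, carries the BCR-ABL1 fusion and has erythroid features, and the labels call it erythrocyte. MOLT4 came from a T cell acute lymphoblastic leukaemia, and the labels call it T lymphoblast. Both were grown in DMEM with serum and antibiotics, and RNA was taken from a single flask of cells. The table holds 1 value per gene and line. The design text states biological replicates, but the sources used here do not say whether the values combine them. No replicate spread can therefore be given, and depth is unknown. Should a line rest on 1 library, q-values of the authors' deposited table would compare libraries. The lines carried the markers of their labels: 7 erythroid markers summed to 918 in K562 and 2.76 FPKM in MOLT4, and 7 T lymphoblast markers summed to 1944 in MOLT4 and 6.41 FPKM in K562. Of 6 markers of other cells, EPCAM was at 52.8 FPKM in K562 and PECAM1 at 41.2 in MOLT4 and 10.2 FPKM in K562, while the others were under 2 FPKM in both lines.

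Chromosome 20 carries housekeeping genes of splicing, ribosome assembly, DNA replication and protein turnover, and among them clusters of secreted proteins such as the cystatins, the WAP inhibitors, the BPI fold proteins and the beta-defensins, which are mostly active in epithelia and the male reproductive tract. A stretch of its long arm is recurrently lost in myeloid disorders. In cultured cancer lines chromosome arms are often present in unequal number, and RNA levels along a chromosome are usually read beside DNA copy number, which was not analysed here.

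The promoters shown are those of the 2 genes with the largest fold toward each line, among genes with a q of at most 0.05 in the authors' deposited table, 1 FPKM or above in the lower line and exactly 1 listed start. They are from RefSeq on GRCh38.p14 and run from 250 bases before to 50 after the start, 5′ to 3′ on the strand of the gene. Capitals mark CG dinucleotides, the sites of DNA methylation in mammals. ADA lies at chr20:44651650-44651949 (minus strand), RBBP9 at chr20:18497176-18497475 (minus strand), CST3 at chr20:23637906-23638205 (minus strand) and DTD1 at chr20:18587804-18588103 (plus strand). ADA and RBBP9 were higher in MOLT4, CST3 and DTD1 in K562.
ADA: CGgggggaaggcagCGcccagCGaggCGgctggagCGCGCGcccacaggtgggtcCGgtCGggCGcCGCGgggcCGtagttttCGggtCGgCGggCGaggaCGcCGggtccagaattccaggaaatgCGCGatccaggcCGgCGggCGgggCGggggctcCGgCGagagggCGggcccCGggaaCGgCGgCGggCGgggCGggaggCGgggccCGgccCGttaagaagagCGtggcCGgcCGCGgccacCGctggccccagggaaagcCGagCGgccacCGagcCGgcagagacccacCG
RBBP9: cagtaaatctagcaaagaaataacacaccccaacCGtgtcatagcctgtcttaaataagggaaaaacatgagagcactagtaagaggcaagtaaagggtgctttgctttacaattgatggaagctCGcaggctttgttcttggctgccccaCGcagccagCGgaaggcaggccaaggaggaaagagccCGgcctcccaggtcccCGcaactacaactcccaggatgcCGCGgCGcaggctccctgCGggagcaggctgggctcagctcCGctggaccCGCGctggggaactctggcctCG
CST3: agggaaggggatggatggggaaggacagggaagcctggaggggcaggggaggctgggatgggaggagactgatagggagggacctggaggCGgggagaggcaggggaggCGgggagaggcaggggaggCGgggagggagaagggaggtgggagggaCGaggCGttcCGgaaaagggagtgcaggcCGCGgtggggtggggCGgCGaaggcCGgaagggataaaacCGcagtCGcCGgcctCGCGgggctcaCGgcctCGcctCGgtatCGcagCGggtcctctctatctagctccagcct
DTD1: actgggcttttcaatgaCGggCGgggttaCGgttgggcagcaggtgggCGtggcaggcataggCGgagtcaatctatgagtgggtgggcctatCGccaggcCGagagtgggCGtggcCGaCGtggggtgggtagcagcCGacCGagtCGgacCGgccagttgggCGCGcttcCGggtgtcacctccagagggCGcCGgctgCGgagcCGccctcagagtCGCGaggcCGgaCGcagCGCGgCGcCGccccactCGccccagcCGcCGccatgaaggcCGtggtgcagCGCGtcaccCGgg
The ADA promoter held 47 CG dinucleotides, the DTD1 promoter 36, the CST3 promoter 21 and the RBBP9 promoter 14. The median over the 741 chromosome 20 genes with a promoter in the table was 13 (for genes with several starts, the first listed). Over the 264 measured genes among them the median was 30, above the counts of CST3 and RBBP9. The order of the CG counts of ADA, DTD1, CST3 and RBBP9 did not follow the direction of the difference.

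Chromosome 20 genes were, for the most part, higher in MOLT4. Of the 351 genes with a ratio, 251 were higher in MOLT4 and 100 in K562, and the median on the log2(MOLT4/K562) scale was 0.54, a ratio of 1.46. The quartiles were -0.14 and 1.30. Over the 13230 measured genes of all other chromosomes with a ratio the median was -0.06 and the quartiles were -0.89 and 0.69, with 47.9% higher in MOLT4 against 71.5% on chromosome 20. Among 23 chromosomes (1 to 22 and X), chromosome 13 had the highest median, 0.73, and chromosome 20 the second, followed by chromosome 14 at 0.40. The lowest was -0.43, for chromosome 1. Neighbouring genes are not independent, and these differences between chromosomes were not tested. In RNA from whole cultures, fewer cells that express a gene and less RNA per cell cannot be told apart.

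**Figure D1:**
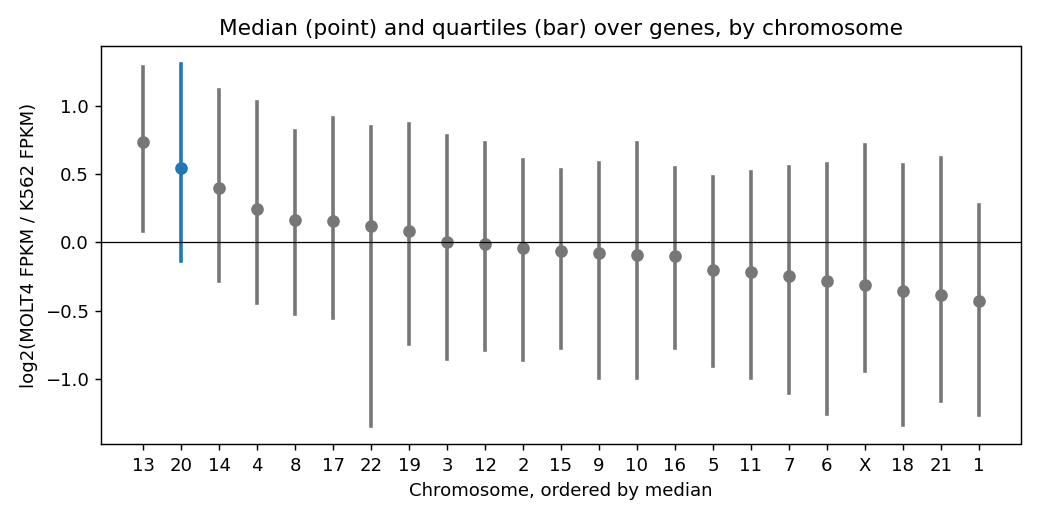
Median (point) and quartiles (bar) of log2(MOLT4 FPKM / K562 FPKM) over the measured genes of each chromosome, in order of the median; chromosome 20 is in blue. Chromosome 20, at 0.54, is second to chromosome 13, at 0.73.

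A gene was called where its q was at most 0.05 in the authors' deposited table, which comes from Cuffdiff with adjustment over all tested genes. Of the 472 chromosome 20 genes tested there, 153 were called toward MOLT4 (32.4%) and 72 toward K562 (15.3%). Over all tested genes of the authors' deposited table the shares were 18.8% and 23.4%, and 42.2% were called in either direction. Of the 363 measured genes, all tested, the authors' deposited table called 139 toward MOLT4 and 54 toward K562, 38.3% and 14.9%, where the shares over all measured genes were 20.8% and 25.3%. Over all tested genes of the authors' deposited table, the share called higher in MOLT4 was the second highest of the 23 chromosomes, and the share called higher in K562 was the third lowest.

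The shift was one of moderate differences. Between 2-fold and 4-fold, 81 genes of chromosome 20 were higher in MOLT4 (23.1%) and 14 in K562 (3.99%), where the shares over all measured genes were 9.39% and 10.2%. At 4-fold or more, 39 genes were higher in each line (11.1% each), where the shares over all measured genes were 9.87% and 12.6%. The genes with the largest differences were thus split evenly between the lines, and the excess toward MOLT4 lay among genes that differed by less than 4-fold. Highly expressed genes showed it too. Of 66 genes with a mean of at least 50 FPKM, 52 were higher in MOLT4 (median log2 ratio 0.50), while over all chromosomes the median of that class was -0.17. In the class of 1 to 5 FPKM, 45 genes were higher in MOLT4 and 37 in K562. The 310 protein-coding genes had a median of 0.57, against -0.03 over all protein-coding genes. The 23 antisense and lincRNA genes had a median of -0.02, against -0.17 over all chromosomes.

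**Figure D2:**
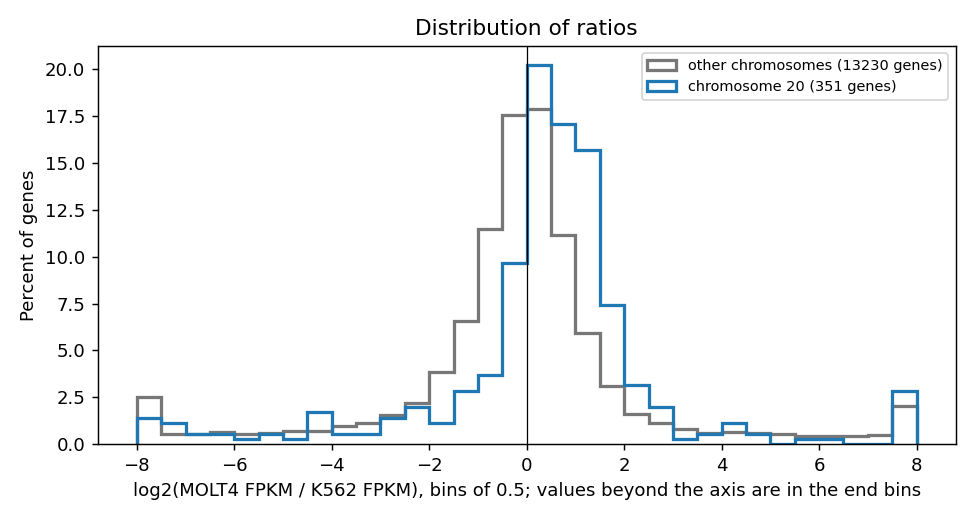
Percent of genes in bins of 0.5 of log2(MOLT4 FPKM / K562 FPKM) for 351 genes of chromosome 20 (blue) and 13230 genes of the other chromosomes (grey); the end bins hold all values beyond the axis. The blue curve lies above the grey one between 0 and 2, and at 4-fold or more 39 genes lie on each side.

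In 5 Mb steps by locus start, all 13 steps had a median above 0 and more genes higher in MOLT4 than in K562. The medians ran from 0.02 to 1.28. On the other chromosomes, 42.6% of 512 steps with at least 5 genes had a median above 0, and 13.1% had a median above 0.5, a value that 8 of the 13 steps of chromosome 20 passed. The first locus start above the widest stretch without one, 26.1 to 28.6 Mb, was taken as the start of the long arm. Below it, 86 of 107 genes were higher in MOLT4 and the median was 0.88. Above it, 165 of 244 genes were higher in MOLT4 and the median was 0.43. In the account by step that follows, every gene given with FPKM values was called in the authors' deposited table, except AL034430.2, SNX5, NAA20, PKIG, ZFAS1 and UBE2V1. Genes of large fold were chosen among called genes that reached 1 FPKM in both lines, so larger folds below that are mostly left out. Counts called in a step stand beside 38.3% toward MOLT4 and 14.9% toward K562 of measured chromosome 20 genes. Over all measured genes the shares were 20.8% and 25.3%.

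**Figure D3:**
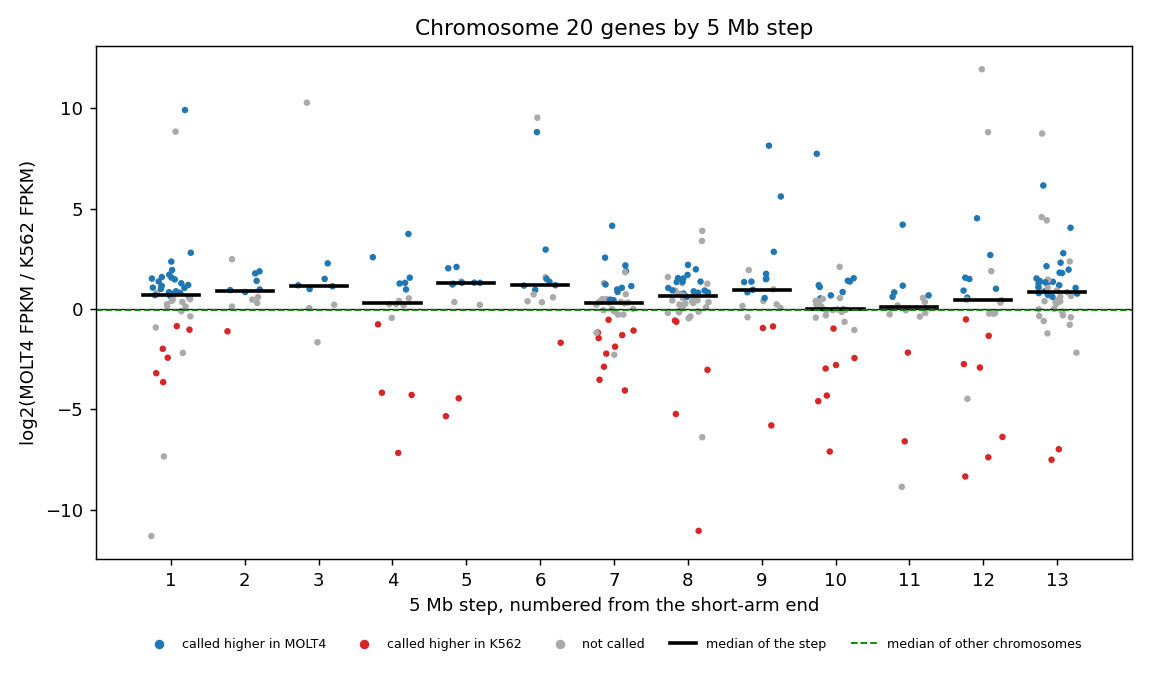
Log2(MOLT4 FPKM / K562 FPKM) of 351 genes by 5 Mb step, numbered from the short-arm end; black bars are step medians, and colours give the authors' calls. All 13 medians lie above 0, lowest in step 10 (0.02) and highest in step 5 (1.28), while called genes of both directions occur in every step but the third.

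From 0 to 5 Mb, 34 of 46 genes were higher in MOLT4, with a median of 0.72, and the authors' deposited table called 23 higher in MOLT4 and 7 in K562. NOP56, a core protein of the box C/D snoRNPs that methylate ribosomal RNA (ENSG00000101361.17, 2652145 to 2658393, GRCh38), was at 411 in MOLT4 and 137 FPKM in K562. SNRPB, a core protein of the spliceosomal snRNPs, was at 352 and 145 FPKM. SLC23A2, an ascorbate transporter, was at 16.9 in MOLT4 and 3.29 FPKM in K562. These had the smallest q that the authors' deposited table lists, 0.000203. Against this, NRSN2, a vesicle membrane protein, was at 1.42 in MOLT4 and 13 FPKM in K562, and TRIB3, a stress-induced pseudokinase, was at 14.6 and 78.5 FPKM. From 5 to 10 Mb, 11 of 12 genes were higher in MOLT4 (median 0.89). PCNA, the sliding clamp of DNA replication (ENSG00000132646.11, 5114953 to 5126626), was at 713 in MOLT4 and 209 FPKM in K562. PLCB1, a phospholipase C, was at 5.2 and 1.42 FPKM. The exception was TMX4, a membrane thioredoxin of the endoplasmic reticulum, at 6.10 in MOLT4 and 13.2 FPKM in K562.

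From 10 to 15 Mb, 8 of 9 genes were higher in MOLT4, and the median was 1.13. TASP1, the protease that cleaves the KMT2A protein, was at 14.9 in MOLT4 and 3.09 FPKM in K562. The most abundant row there, the unnamed AL034430.2, was at 80.4 and 78.1 FPKM. From 15 to 20 Mb the step was mixed: 11 genes were higher in MOLT4 and 5 in K562, and the median was 0.32. RBBP9, a serine hydrolase that binds the retinoblastoma protein (ENSG00000089050.16, 18486540 to 18497243), was at 16.8 in MOLT4 and 1.26 FPKM in K562. Close by, DTD1, which removes D-amino acids from tRNAs (ENSG00000125821.12, 18587893 to 18766644), was at 1.27 in MOLT4 and 22.9 FPKM in K562. KAT14, an acetyltransferase subunit, was at 19.3 and 3.24 FPKM. The most abundant gene, SNX5, a sorting nexin of endosomes, was at 147 and 102 FPKM, with a q of 0.0860 in the authors' deposited table.

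From 20 to 25 Mb, 10 of 12 genes were higher in MOLT4, with a median of 1.28. Its place among the steps depended on the setting: with a pseudocount of 1 FPKM it was 0.86, below the 1.09 of the step from 25 to 30 Mb. APMAP, a membrane protein, was at 42.8 in MOLT4 and 10.1 FPKM in K562. The strongest opposite gene was CST3, which encodes the protease inhibitor cystatin C (ENSG00000101439.9, 23626706 to 23638473), at 1.42 in MOLT4 and 57.3 FPKM in K562. NAA20, a subunit of an N-terminal acetyltransferase, was at 79.6 and 62.8 FPKM. From 25 to 30 Mb, 13 of 14 genes were higher in MOLT4 (median 1.17). From APMAP to FRG1CP, 14 measured genes in a row, at 10 deposited loci, were higher in MOLT4. GINS1, a subunit of the replicative helicase, was at 48.9 in MOLT4 and 17.3 FPKM in K562, and the zinc finger gene ZNF337 was at 13.7 and 1.76 FPKM. The single gene higher in K562 was FRG1DP, at 1.01 in MOLT4 and 3.25 FPKM in K562. It is one of several near-identical pseudogene copies of FRG1, so its value is uncertain, as is that of FRG1CP.

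From 30 to 35 Mb the lines were closer, with 26 genes higher in MOLT4, 17 in K562, and a median of 0.32. The authors' deposited table called 11 higher in MOLT4 and 10 in K562. E2F1, a transcription factor of the G1 to S transition, was at 46.5 in MOLT4 and 12.6 FPKM in K562. ID1, an inhibitor of helix-loop-helix factors (ENSG00000125968.9, 31605283 to 31606515), was at 3.33 in MOLT4 and 55.3 FPKM in K562. The most abundant gene, RALY, which binds heterogeneous nuclear RNA, was at 262 and 126 FPKM. From 35 to 40 Mb, 38 of 50 genes were higher in MOLT4 (median 0.63). RBM39, a splicing factor, was at 305 in MOLT4 and 180 FPKM in K562, and SLA2, an adaptor that dampens T cell receptor signalling, was at 7.14 and 1.56 FPKM, with a q of 0.0445 in the authors' deposited table. Where the lower line reached 1 FPKM, the called gene furthest toward K562 there was PPP1R16B, a phosphatase subunit, at 6.48 and 10.1 FPKM.

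From 40 to 45 Mb, 17 of 21 genes were higher in MOLT4, and the median was 0.96. ADA, which converts adenosine to inosine (ENSG00000196839.13, 44619522 to 44652233), was at 733 in MOLT4 and 2.62 FPKM in K562, 280-fold, the largest fold on the chromosome among called genes that reached 1 FPKM in both lines. The summed FPKM of the step was 1847 in MOLT4 and 615 in K562, and ADA alone contributed 733 FPKM of the MOLT4 sum. PKIG, which shares a deposited locus with ADA, was at 11.7 and 3.05 FPKM and was not called in the authors' deposited table. OSER1-DT, a divergent transcript, was at 1.31 in MOLT4 and 2.40 FPKM in K562. Under 1 FPKM in the lower line, LPIN3 was called toward K562 at 0.0625 and 3.48 FPKM, and FITM2 at 0.966 and 1.87 FPKM. TOX2 was called toward MOLT4 at 2.07 and 0.0427 FPKM.

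The lowest step medians lay from 45 to 55 Mb, although not in every setting. From 45 to 50 Mb, 19 genes were higher in MOLT4 and 16 in K562, with a median of 0.02. Without a threshold on FPKM this median was 0.38, and with genes alone at their locus 0.40, above the 0.32 and 0.38 of the step from 30 to 35 Mb. ZFAS1, the host of snoRNA genes and the most abundant there, was at 162 in MOLT4 and 169 FPKM in K562. NCOA5, a nuclear receptor coactivator, was at 47.7 and 16.5 FPKM, whereas ZMYND8, a reader of acetylated histones, was at 6.42 and 50.1 FPKM. Called genes under 1 FPKM in the lower line had larger folds. Toward K562 these were SLC13A3 at 0.0515 and 7.05 FPKM, SNAI1 at 0.256 and 6.16 FPKM, and PREX1 at 0.158 and 3.13 FPKM. Toward MOLT4 it was UBE2C, at 124 and 0.587 FPKM. From 50 to 55 Mb the median was 0.10. UBE2V1, a ubiquitin-conjugating enzyme variant, was at 152 and 160 FPKM. The zinc finger gene ZNF217 was at 35.6 in MOLT4 and 16 FPKM in K562, and CEBPB, a myeloid transcription factor, was at 7.18 and 32.3 FPKM.

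From 55 to 60 Mb the spread was wide, with quartiles of -1.34 and 1.49 around a median of 0.43, and the authors' deposited table called 7 genes higher in MOLT4 and 8 in K562. In steps of 2.5 Mb, the 9 genes from 55 to 57.5 Mb had a median of -0.52, and the 16 from 57.5 to 60 Mb a median of 0.67. The first of these holds FAM210B, a mitochondrial protein, at 8.23 in MOLT4 and 62.1 FPKM in K562. GNAS, the stimulatory G protein alpha subunit of an imprinted locus (ENSG00000087460.25, 58839718 to 58911192), lies in the second and was at 1217 in MOLT4 and 433 FPKM in K562. FAM217B was at 33.3 and 11.3 FPKM. From 60 to 65 Mb, 41 of 52 genes were higher in MOLT4 (median 0.86), and the authors' deposited table called 25 higher in MOLT4 and 2 in K562. RPS21, a protein of the small ribosomal subunit and the most abundant gene of the chromosome, was at 1750 in MOLT4 and 1150 FPKM in K562, with a q of 0.00279 in the authors' deposited table. From RPS21 to ARFGAP1, 62.4 to 63.3 Mb, 14 genes with a ratio in a row were higher in MOLT4. They lay at 11 deposited loci, and the authors' deposited table called 11 of the genes. Of measured chromosome 20 genes 53.2% were called, and of all measured genes 46.0%. Adjacent genes with a ratio lay on the same side in 63.4% of pairs on chromosome 20 and in 60.0% over all chromosomes. LIME1, an adaptor that binds the kinase LCK, was at 18.4 and 1.11 FPKM. Its locus is shared by 13 rows, so overlapping genes may contribute to its value.

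Among called genes that reached 1 FPKM in both lines, those with the largest folds were interspersed along the chromosome. Some called genes under 1 FPKM in the lower line had larger folds, such as RASSF2 (957-fold toward MOLT4) and TGM2 (2114-fold toward K562). They are left out of the order given here. Toward MOLT4, after ADA, LIME1 and RBBP9, came ZNF337 and then PLCG1, the phospholipase C that T cell receptor signalling activates (ENSG00000124181.14, 41136960 to 41196801), at 122 in MOLT4 and 16.9 FPKM in K562. The collagen gene COL9A3 was at 10.2 and 1.49 FPKM, and TCFL5, a helix-loop-helix factor, was at 30.5 and 6.18 FPKM. Toward K562, after CST3, DTD1 and ID1, came ACSS2, which makes acetyl-CoA from acetate outside mitochondria (ENSG00000131069.20, 34872146 to 34927962), at 3.97 in MOLT4 and 45.7 FPKM in K562. SDC4, a cell surface proteoglycan, was at 1.16 and 8.06 FPKM, and PLTP, a phospholipid transfer protein, was at 2.31 and 12.6 FPKM.

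**Figure D4:**
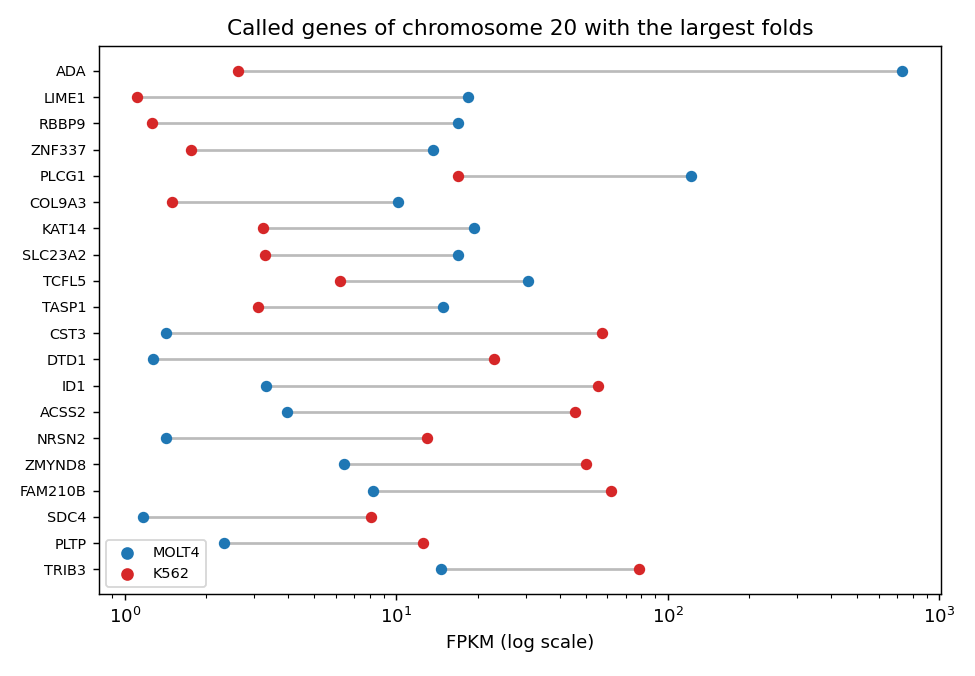
FPKM (log scale) in MOLT4 (blue) and K562 (red), 1 value per line, for the 10 called genes with the largest fold toward each line that reached 1 FPKM in both. ADA spans 2.62 to 733 FPKM, and CST3 spans 1.42 to 57.3 FPKM in the other direction.

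Expression limited to 1 line, taken as 10 FPKM or above there and below 0.1 FPKM in the other, was found for 11 genes, 7 in MOLT4 and 4 in K562. They were 0.755% of the chromosome's rows, near the 0.837% of all rows. In MOLT4 these were RASSF2, a RAS-association domain protein, at 15.8 against 0.0165 FPKM, ACSS1, the mitochondrial counterpart of ACSS2, at 25.7 against 0.0576 FPKM, NINL, a centrosomal protein, at 15.3 against 0.0208 FPKM, TFAP2C at 14.7 against 0.00375 FPKM, and SLC17A9, the vesicular nucleotide transporter, at 12.1 against 0.0284 FPKM. NKAIN4, which interacts with the sodium pump, was at 48.9 FPKM, and LINC01260 at 27.6 FPKM, and both were listed at 0 in K562. The pair of acetyl-CoA synthetases thus lay in opposite directions, ACSS1 in MOLT4 and ACSS2 in K562. In K562 the genes were TGM2, a transglutaminase, at 43.8 against 0.0207 FPKM, SRXN1, a reductase of oxidized peroxiredoxins, at 19.8 against 0.00784 FPKM, RIPOR3 at 11.3 against 0.0245 FPKM, and CTCFL, the germline paralogue of CTCF, at 110 FPKM and listed at 0 in MOLT4. The authors' deposited table called 5 of the 11: RASSF2, ACSS1, NKAIN4, TGM2 and CTCFL.

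Genes of RNA processing were mostly higher in MOLT4, 24 of 27. All 27 members were measured, and the authors' deposited table called 19 toward MOLT4 and 1 toward K562 (median 1.04), where 20.8% and 25.3% of all measured genes were called. Of the measured genes of chromosome 20, 38.3% were called toward MOLT4 and 14.9% toward K562. Both pairs of shares stand beside the counts of every list below, and no list was tested against them. Among the genes given below by role, those not called in the authors' deposited table are named as such. SNRPB2, a U2 snRNP protein, was at 154 in MOLT4 and 62.4 FPKM in K562. SRSF6, which guides splice site choice, was at 144 and 74.1 FPKM, and CTNNBL1, a spliceosome-associated protein, was at 75.3 and 29.3 FPKM. RBM38, an RNA-binding target of p53, was the exception, at 15.0 in MOLT4 and 37.9 FPKM in K562. STAU1, which binds double-stranded RNA, was at 73.1 and 81.1 FPKM and was not called in the authors' deposited table. ZGPAT, at 16.9 and 6.16 FPKM, was not called there either.

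All 11 measured genes of DNA replication and repair were higher in MOLT4 (median 0.69), and 5 were called there in the authors' deposited table and none in K562. The 5 called were 45.5% of the list, beside 38.3% of measured chromosome 20 genes. Besides PCNA and GINS1 these were XRN2, an exonuclease of transcription termination, at 91.7 and 39.4 FPKM, ITPA, which clears inosine triphosphate, at 35.9 and 22.3 FPKM, and SLX4IP, a telomere and repair factor, at 7.61 and 3.37 FPKM. TOP1, the DNA topoisomerase that camptothecins target, was at 128 and 109 FPKM and was not called there. Of 19 cell cycle and mitosis genes, the authors' deposited table called 9 toward MOLT4 and 1 toward K562 (median 0.81). That was 47.4% and 5.26%, beside 38.3% and 14.9% of measured chromosome 20 genes. CDC25B, the phosphatase that activates CDK1, was at 82.6 in MOLT4 and 21.6 FPKM in K562, and MYBL2, a transcription factor of the cell cycle, was at 200 and 79.0 FPKM. AURKA, a mitotic kinase, was the one called toward K562, at 47.1 and 67.6 FPKM. Its activator TPX2 was at 154 and 123 FPKM and was not called in the authors' deposited table. UBE2C, the ubiquitin-conjugating enzyme of the anaphase-promoting complex (ENSG00000175063.17, 45812576 to 45816957), stood apart from these at 124 in MOLT4 and 0.587 FPKM in K562.

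The proteasome, ubiquitin and secretory list differed little. Of 32 members, 27 were not called, 4 were called toward MOLT4 and 1 toward K562 in the authors' deposited table (median 0.38). That was 12.5% and 3.1%, below the 38.3% and 14.9% of measured chromosome 20 genes. Although few were called, 26 of the 32 lay above a ratio of 1. PSMA7, a core proteasome subunit, was at 293 in MOLT4 and 225 FPKM in K562, and RPN2, of the oligosaccharyltransferase, was at 183 and 195 FPKM. Neither was called in the authors' deposited table. ARFGAP1, which acts in Golgi traffic, was at 79.0 and 27.6 FPKM, and RNF24, a RING finger protein, was at 16 and 29 FPKM. Of 8 translation genes, the authors' deposited table called 2 higher in MOLT4 and 3 in K562 (median -0.06), or 25% and 37.5%. EEF1A2, an elongation factor mostly found in neurons and muscle (ENSG00000101210.12, 63488012 to 63499322), was at 0.373 in MOLT4 and 67.9 FPKM in K562. EIF6, which keeps ribosomal subunits apart, was at 67.8 and 101 FPKM, and MRPS26 of the mitochondrial ribosome was at 42.2 and 19.0 FPKM.

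**Figure D5:**
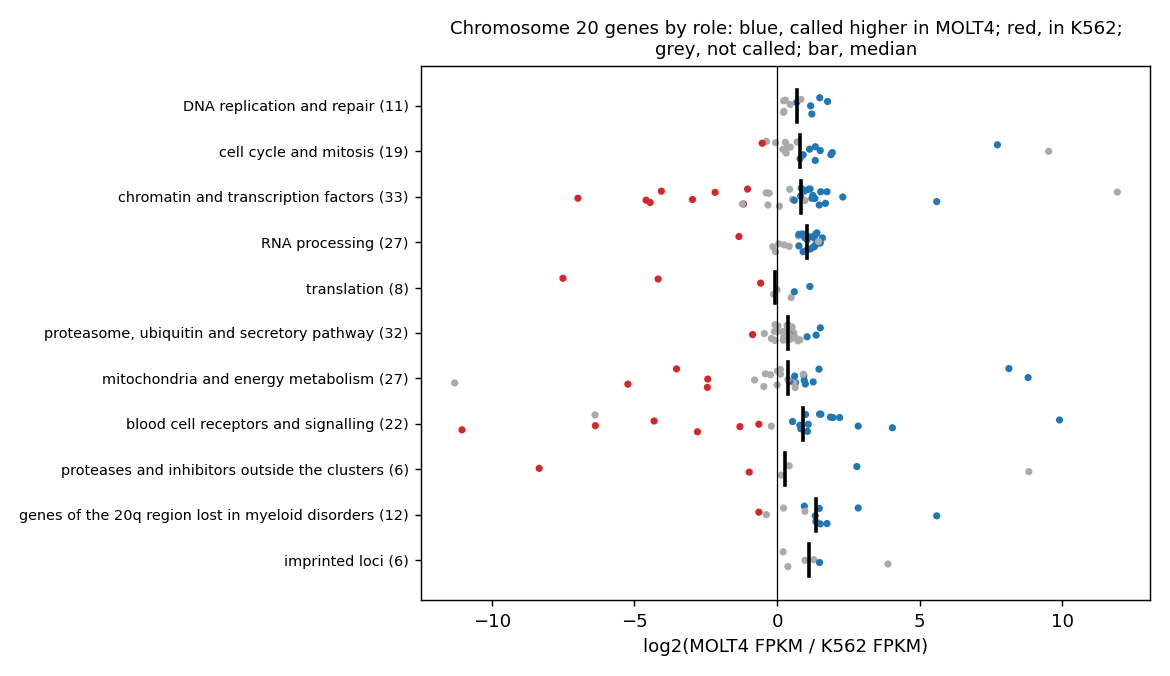
Log2(MOLT4 FPKM / K562 FPKM) of measured chromosome 20 genes in 11 lists by role, with the number of genes with a ratio in brackets; bars are medians and colours give the authors' calls. The RNA processing median lies at 1.04, with 24 of 27 genes above 0, while chromatin, metabolism and blood cell lists spread to both sides.

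Chromatin and transcription factor genes lay on both sides. Of 34 measured of 44, the authors' deposited table called 16 higher in MOLT4 and 9 in K562 (median 0.83 over the 33 with a ratio). That was 47.1% and 26.5%, beside 38.3% and 14.9% of measured chromosome 20 genes. TAF4, a TFIID subunit, was at 32.2 in MOLT4 and 12.8 FPKM in K562, DIDO1 at 38.3 and 15.9 FPKM, and TOX2, an HMG-box factor of lymphocytes, at 2.07 and 0.0427 FPKM. The widely expressed polycomb-associated gene ASXL1 was at 44.4 and 32.6 FPKM and PHF20 at 38.1 and 36.0 FPKM, and neither was called in the authors' deposited table. Higher in K562 were SOX18, an endothelial factor, at 2.55 against 0.0202 FPKM, SNAI1, a repressor of epithelial genes, at 6.16 against 0.256 FPKM, and the DNA methyltransferase gene DNMT3B at 26.2 against 11.6 FPKM.

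The metabolic list was split as well. Of 27 measured of 31, the authors' deposited table called 10 higher in MOLT4 and 4 in K562 (median 0.38). That was 37.0% and 14.8%, near the 38.3% and 14.9% of measured chromosome 20 genes. NDUFAF5, an assembly factor of respiratory complex I, was at 28.5 in MOLT4 and 14.3 FPKM in K562, and AHCY, which hydrolyses S-adenosylhomocysteine, was at 151 and 111 FPKM. SAMHD1, which degrades deoxynucleotides, was at 0.449 in MOLT4 and 16.8 FPKM in K562. ATP5F1E, a subunit of ATP synthase, was at 77.8 and 91.3 FPKM and GSS, glutathione synthetase, at 46.4 and 46.3 FPKM. Neither was called in the authors' deposited table.

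Of 38 blood cell receptor and signalling genes, 23 were measured, and the authors' deposited table called 14 higher in MOLT4 and 6 in K562 (median 0.92 over 22 with a ratio). That was 60.9% and 26.1% of the 23, beside 38.3% and 14.9% of measured chromosome 20 genes. STK4, a Hippo pathway kinase, was at 36.5 in MOLT4 and 20.5 FPKM in K562, SRC at 15.3 and 5.29 FPKM, and RGS19, a regulator of G protein signalling, at 27.4 and 7.04 FPKM. Higher in K562 were BCL2L1, which encodes the survival protein BCL-XL, at 88.0 against 35.7 FPKM, TUBB1, the platelet beta-tubulin, at 11.3 against 0.137 FPKM, and PREX1, a Rac exchange factor, at 3.13 against 0.158 FPKM. PROCR, the protein C receptor, was at 0.0480 in MOLT4 and 4.01 FPKM in K562, and it was not called in the authors' deposited table. MYL9, a myosin light chain, was listed at 0 in MOLT4 and was at 2.41 FPKM in K562, also not called. Of the 15 members under the threshold, CD40, a receptor of B and antigen-presenting cells, was the highest, at 1.72 FPKM in K562, and it was not called in the authors' deposited table.

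Of 15 genes from the long-arm region lost in myeloid disorders, 12 were measured, and 8 were called higher in MOLT4 and 1 in K562 in the authors' deposited table (median 1.35). That was 66.7% and 8.33% of the 12. PLCG1, MYBL2, SRSF6 and TOX2, already described, were also on this list, so it is not separate from the others. They lie in the step from 40 to 45 Mb, where the median was 0.96 and 47.8% of measured genes were called toward MOLT4. The list does not hold every measured gene of the stretch. LPIN3, which lies between PLCG1 and CHD6, is not on it and was called toward K562, at 0.0625 in MOLT4 and 3.48 FPKM in K562. IFT52, of intraflagellar transport, was at 36.8 in MOLT4 and 14.3 FPKM in K562, and CHD6, a chromatin remodeller, was at 25.8 and 9.25 FPKM. L3MBTL1, a chromatin-binding protein, was at 2.94 and 1.49 FPKM and was not called in the authors' deposited table. All 6 genes of imprinted loci were higher in MOLT4, but the authors' deposited table called GNAS alone. Of these, NNAT, an imprinted neuronal gene, was at 3.70 in MOLT4 and 0.25 FPKM in K562, and MCTS2P at 10.8 and 4.43 FPKM. NNAT shares a deposited locus with BLCAP, and MCTS2P with HM13, so the 6 are not separate loci. Of all chromosome 20 genes with a ratio, 71.5% were higher in MOLT4. Of 10 proteases and inhibitors outside the clusters, 6 were measured, and the authors' deposited table called 1 higher in MOLT4 and 2 in K562. CTSZ, a lysosomal cathepsin (ENSG00000101160.14, 58995185 to 59007247), was at 0.245 in MOLT4 and 79.3 FPKM in K562. CTSA, another lysosomal protease, was at 18.6 and 36.6 FPKM. The metalloprotease gene ADAM33 was at 3.04 in MOLT4 and 0.00668 FPKM in K562, and it was not called there.

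The clusters of secreted proteins were low or listed at 0 in both lines. Of 11 cystatin genes CST3 alone was measured, and the highest of the rest was at 0.550 FPKM. None of 18 WAP cluster genes, 10 BPI fold genes and 13 beta-defensin genes was measured, and their highest values were 0.159, 0.0659 and 0.0518 FPKM, all in K562. Listed at 0 in both lines were 12, 6 and 9 of them. The 36 unmeasured cluster genes with a promoter in the table had a median of 3 CG dinucleotides per 300 bases. All 198 unmeasured genes with a promoter, these 36 included, had a median of 6, and 264 measured genes had a median of 30. The sequence TATAAA, searched on both strands, was in 25% of the cluster genes, 13.6% of all unmeasured genes, 5.68% of measured genes and 11.5% of all 35116 promoters. GGGCGG, also on both strands, was in 11.1%, 29.3%, 68.2% and 45.0% of these sets. Among measured genes, those called higher in MOLT4 in the authors' deposited table had a median of 31 CG dinucleotides, those called higher in K562 a median of 26.5 and those not called a median of 29. The quartiles of the called groups overlapped, 21 to 38 for MOLT4 and 20 to 37 for K562.

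Overlapping genes share fragments, and 237 of the 363 measured genes shared their deposited locus with another row. The 121 genes with a ratio that were alone at their locus had a median of 0.53, with 89 higher in MOLT4 and 32 in K562.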

How the data were processed

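The submitters' processing notes name TopHat2 2.1.1, CASAVA 1.8.2, Cuffdiff and Cufflinks 2.2.2, beside the builds GRCh38.p13 and hg38. The authors deposited FPKM values, 1 per gene and line, and for each gene a p-value with its q-value. The normalization between lines and the use of strand are not given in the sources used here. The smaller deposited table holds 18870 rows, all found unchanged in the full table, which was used.

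Log2 ratios of MOLT4 to K562 were computed with no pseudocount from genes above 0 in both lines with a mean of at least 1 FPKM (Python 3.11.15, pandas 2.3.3). Steps of 5 Mb follow the start of the deposited locus, which can hold several genes. Positions and gene types came from GENCODE release 29 (GRCh38), in which 1393 of the 1457 rows matched without their version, all on chromosome 20. All chromosome 20 rows have the status OK (472) or were not tested (985). Calls are the authors', so no test was run here. The summaries were also run on simulated independent values with a shift built into chromosome 20. That checks the computation only, since neighbouring genes in the data are not independent. Named genes are, for each step, the called gene with the largest fold toward each line (at least 1 FPKM in the lower line) and the most abundant gene, then the largest folds of the chromosome, genes of a single line, and from each list some abundant, extreme or uncalled members. The choice among list members was made after seeing values. Members and lists were chosen with earlier results of these data known. Promoters were matched by symbol for 264 of 363 measured genes. Alternatives varied pseudocount, threshold, status, centring, step width, gene start, gene type and locus sharing.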

Additional observations from a re-analysis of the deposited data

How the results depend on the processing

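The median of chromosome 20 stayed between 0.47 and 0.60 in 11 alternatives, and no step median changed sign in 138 comparisons, although 26 moved and the order of the steps changed with them. Some alternatives could not have changed the result. All measured genes of the chromosome were tested, so keeping only tested genes changed no median. Placing genes by their own start cannot alter the chromosome median. Centring on all genes raised every ratio by the same amount, so no positive median could turn negative. A change under 0.1 on the log2 scale was taken as no move. In steps of 2.5 Mb, 19 of 21 steps with at least 5 genes had a median above 0. In steps of 10 Mb 7 of 7 did, and with genes alone at their locus, an alternative chosen after seeing the data, 8 of 8 steps did. Restricted to genes alone at their locus, calls in the authors' deposited table fell from 153 to 66 toward MOLT4 and from 72 to 33 toward K562, since fewer genes enter. Short lists were less stable. The median of the proteases and inhibitors was -0.98 with a threshold of 5 FPKM and -0.88 with none, against 0.29. That of the translation genes was 0.0014 with at least 1 FPKM in each line and 0.49 with genes alone at their locus, against -0.06. The cause was not tested. No paired analysis was possible because each line has 1 deposited value per gene, and for the same reason no replicate could be left out. Depth is unknown, so the precision of low values cannot be given.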

Other observations

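Most noncoding and pseudogene rows of chromosome 20 were low, and 29 measured rows were antisense or lincRNA genes and 9 were pseudogenes. The rows described here were picked after their values were seen. NORAD, a long noncoding RNA that binds PUMILIO proteins, was at 99.5 in MOLT4 and 109 FPKM in K562. Next to ADA, LINC01260 and AL139352.1 were at 27.6 and 6.95 FPKM in MOLT4 and both were listed at 0 in K562. Neither was called in the authors' deposited table. They overlap, with the same lower coordinate, 44656451, and a deposited locus of 7 rows, so their values are not separate. ABALON, which overlaps BCL2L1, was at 22.8 in MOLT4 and 62.4 FPKM in K562, the same direction as BCL2L1. The sources used here do not state strand use, and overlapping pairs of this kind cannot be told apart. MIR646HG was at 5.46 and 0.0771 FPKM. LINC00656 and AL118508.2 were listed at 0 in MOLT4 and were at 2.1 and 3.83 FPKM in K562.

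Some genes higher in K562 lay beside genes higher in MOLT4. EEF1A2, at 67.9 FPKM in K562, lies between ARFGAP1, at 79.0 in MOLT4 and 27.6 FPKM in K562, and PPDPF, at 205 and 119 FPKM. CTSZ and TUBB1 are next to each other among the measured genes and were both higher in K562, between NELFCD, at 108 and 57.1 FPKM, and ATP5F1E, at 77.8 and 91.3 FPKM. ATP5F1E was thus higher in K562 as well, although not called in the authors' deposited table. CASS4, an adhesion adaptor, was at 0.179 in MOLT4 and 29.8 FPKM in K562, near RTF2, at 102 and 68.7 FPKM. FAM210B and AURKA, also near CASS4, were both called toward K562, so its neighbours lay on both sides.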
